A study of Homo sapiens with 12 samples.

Results

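The response examined here was that of HCT116 KAP1-dTAG cells to 30 min of serum after KAP1 had been depleted. HCT116 is a human colorectal carcinoma line, and in the derivative used here KAP1 (the protein product of TRIM28) carries a degron at its C-terminus. The ligand dTAG joins the tagged protein to an E3 ubiquitin ligase, which leads to its destruction by the proteasome while its gene and mRNA remain. Every library therefore came from cells with the tag, and all cells had gone without serum for 48 h, with dTAG or its solvent DMSO present for the last 8 h before stimulation. The 6 libraries at the centre of the comparison were 3 from dTAG-treated cells left without serum (dTAG-S0) and 3 from dTAG-treated cells given serum for 30 min (dTAG-S30), out of 12 in the series. The remaining 6 were the same pair of conditions in DMSO (DMSO-S0 and DMSO-S30). All libraries came from 1 clone, so variation between clones was not sampled. KAP1 protein was not measured in these libraries.

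Growth factors and lipids in serum reach quiescent cells through receptor tyrosine kinases and G protein-coupled receptors, and within minutes MAP kinase and cytoskeletal signalling act on factors already bound at a small set of promoters. The genes that answer are the immediate early genes (IEGs), which need no new protein to be switched on. They include the FOS and JUN subunits of AP-1, the EGR zinc finger factors, the NR4A nuclear receptors, and a group of inhibitors (dual-specificity phosphatases, Sprouty proteins, mRNA decay factors) that end the signal. SRF, which reads CArG boxes, and CREB, which reads cAMP response elements (CREs), are the best known of the factors that wait at these promoters. KAP1 is a scaffold protein known both for silencing retroelements through KRAB zinc finger proteins and for acting on paused RNA polymerase II.

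The values were read counts over whole genes, introns included, so unspliced RNA is part of each value. The 6 dTAG libraries held between 22826596 and 26278707 counts. Replicates within a group gave a Spearman correlation of at least 0.996 across genes, and the principal component that separated serum from no serum carried 67.8% of the variance among the 6 libraries. The next component, with 11.1%, set dTAG-S30 replicate 1 and dTAG-S0 replicate 2 apart from the other libraries. The tag's target, TRIM28, had 95.2, 85.5 and 97.2 counts scaled to a common library size (CPM) in the dTAG-S0 libraries and 103, 116 and 117 CPM with serum (log2 fold change 0.27, SE 0.0659, edgeR quasi-likelihood test, adjusted p = 0.00365), a level that says nothing of KAP1 protein. EPCAM, CDH1, KRT8, KRT18, KRT19 and CDX2, markers of intestinal epithelium, were all detected, whereas KRT20, CDX1, VIL1, LGALS4, CDH17, CEACAM5 and GPA33 stayed below 1 CPM. ERCC spike-in RNA, added in a fixed amount to a fixed mass of RNA, took 8.94 ± 0.230% of counts in dTAG-S0 and 8.49 ± 0.495% in dTAG-S30 (SD, n = 3, ratio 0.951, exact two-sided permutation p = 0.3, where the smallest p possible is 0.1). In bulk libraries of this kind fewer cells with an RNA and less of it per cell cannot be told apart.

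Of 19901 genes counted, 13093 were tested, those with 10 counts in 6 or more libraries, and 3203 of them (24.5%) were called changed at an adjusted p under 0.05, 1190 (9.09%) higher and 2013 (15.4%) lower. The balance between the directions depended on the scaling: 37.2% of the calls were higher here, 61.6% of 2896 with TMM scaling, 62.5% of 1646 with library sizes from the spike-ins and 59% of 2830 with DESeq2. Without dTAG-S30 replicate 3, 1200 genes were called lower. The rises were the larger changes. At least 2-fold, 241 genes rose (1.84%) and 56 fell (0.428%), and at 4-fold, 8-fold and 16-fold the rises numbered 86, 39 and 21 with no fall at any of these sizes. Most falls, 1815 of 2013, were under 1.5-fold. The same genes made up the large rises under other scalings, since all 241 were called higher with TMM and 237 with spike-in sizes, while 1112 and 617 of the 2013 lower genes kept their call. The 3 dTAG-S30 libraries lay wholly outside the range of the 3 dTAG-S0 libraries for 238 of the 241 raised genes and for all 56 lowered ones, against 37.5% of all genes tested. Both sets were chosen by p and fold change in these same libraries, so this separation is largely built in and adds no support. Together the 241 raised genes took between 0.857% and 0.904% of gene counts in dTAG-S0 and between 3.04% and 3.33% in dTAG-S30.

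**Figure D1:**
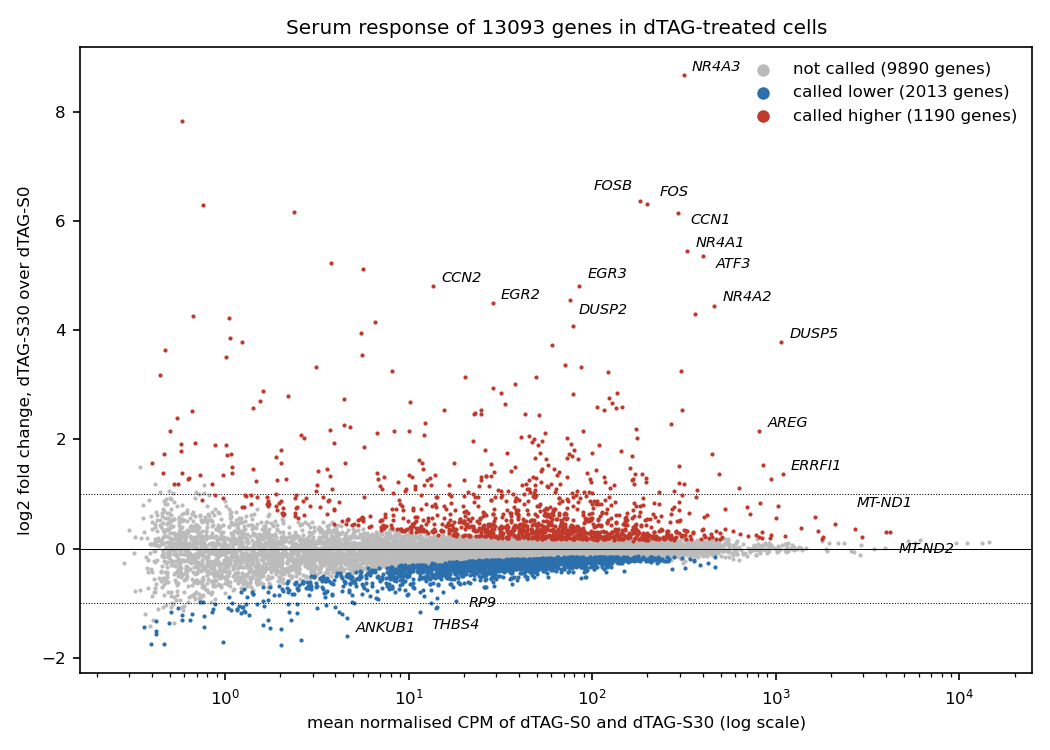
Each point is 1 of the 13093 genes tested, with its mean normalized CPM over the dTAG-S0 and dTAG-S30 groups on the x axis (log scale) and its log2 fold change with serum on the y axis, coloured by call, and dotted lines mark 2-fold. The largest rise is that of NR4A3 (log2 fold change 8.66), while the highly expressed MT-ND2 and MT-ND1 rise by 0.30 and 0.31. The called falls lie mostly close to 0 and those past 2-fold are mostly weakly expressed genes.

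The largest rises among genes with at least 100 counts on average included those of the NR4A receptors, the AP-1 and EGR factors and the secreted CCN proteins. NR4A3, an orphan nuclear receptor, had 1.08, 1.3 and 2.21 CPM without serum and 686, 546 and 653 CPM with it. No library of either group came near the range of the other, and the fold change was 405 (log2 8.66, SE 0.136, edgeR adjusted p = 2.63e-26). FOSB, an AP-1 subunit, went from 4.42, 4.59 and 4.08 CPM to 353, 348 and 377 CPM (log2 6.37, SE 0.0831, edgeR adjusted p = 1.35e-27). The gene lies against ERCC1 on the opposite strand, so its reads may include some of that gene. FOS, its sister subunit at chr14:75278774-75282230 (hg38, plus strand), went from 5.08, 4.63 and 5.04 CPM to 372, 403 and 399 CPM (log2 6.31, SE 0.0948, edgeR adjusted p = 1.2e-26). CCN1, a secreted matrix-associated protein and target of both SRF and YAP, had 8.7, 7.92 and 7.74 CPM without serum and 545, 588 and 607 CPM with it, a 70.6-fold rise (edgeR adjusted p = 1.57e-27). These 4 genes started below 10 CPM in every dTAG-S0 library and ended at 348 CPM or more in every dTAG-S30 library. The other genes of this rank were NR4A1 (log2 5.45), the stress factor ATF3 (5.36), ASTL, a metalloprotease best known from the oocyte (5.11), CCN2 (4.81), EGR3 (4.80), the MAP kinase phosphatase DUSP2 (4.56), EGR2 (4.49) and NR4A2 (4.45). ASTL was the weakest of them, with at most 0.375 CPM without serum and between 9.48 and 13.1 CPM with it. It had at most 9 counts in each dTAG-S0 library and entered the test only through the serum libraries, where it was high.

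**Figure D2:**
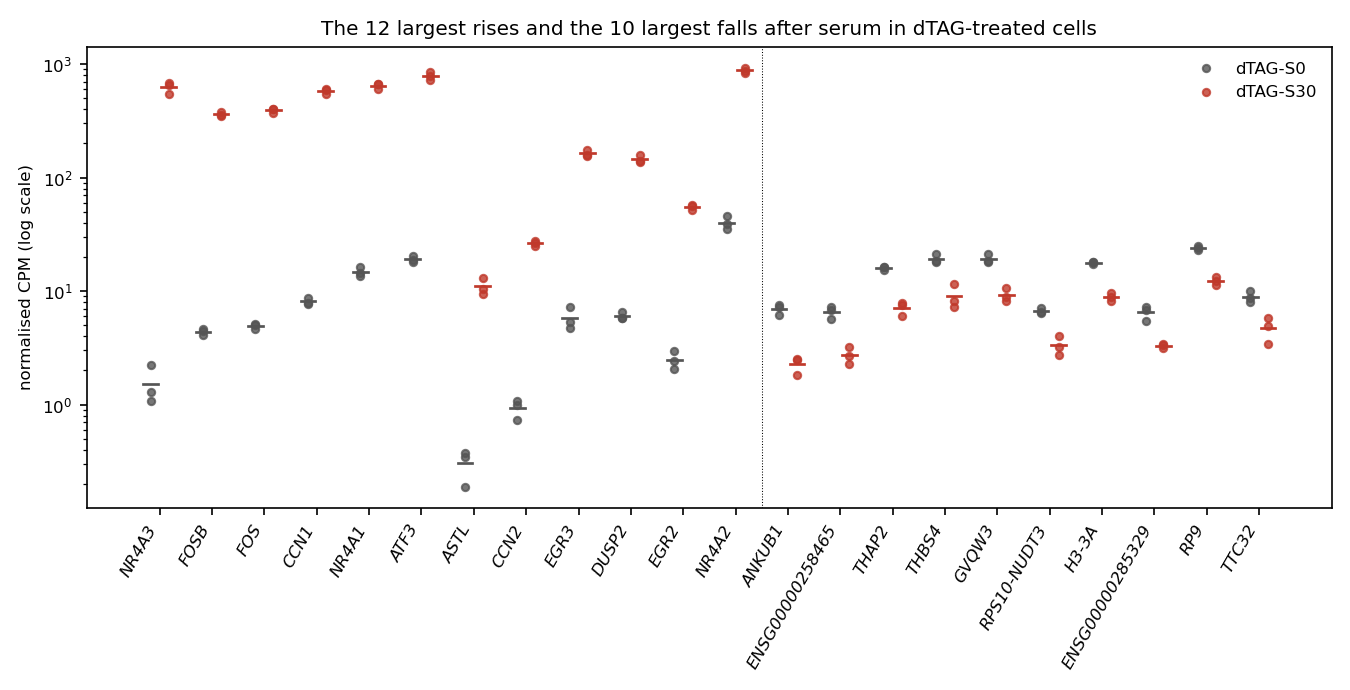
Normalized CPM (log scale) in each of the 3 dTAG-S0 libraries (grey) and 3 dTAG-S30 libraries (red) for the 12 largest rises and the 10 largest falls among genes with a mean of at least 100 counts, with a bar at each group mean. The groups do not overlap for any of the 22 genes, a condition the choice of genes required, and the rises all exceed a log2 fold change of 4 while the largest fall is -1.60.

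Measured as CPM gained, the response was led by inhibitors and ligands of the EGF receptor and MAP kinase pathway, which were already well expressed without serum. DUSP5, a nuclear phosphatase that inactivates ERK, went from 141, 139 and 152 CPM to 2020, 1920 and 2020 CPM, a gain of 1840 CPM and a 13.8-fold rise (SE of log2 0.067, edgeR adjusted p = 4.46e-25). AREG, a ligand of the EGF receptor, went from 285, 297 and 315 CPM to 1360, 1320 and 1310 CPM. ERRFI1, an inhibitor that binds the kinase domain of the same receptor, went from 604, 589 and 628 CPM to 1650, 1500 and 1560 CPM. Thus a gene with a 2.58-fold change (ERRFI1) added 962 CPM, while the 405-fold change of NR4A3 added 627 CPM. MT-ND2 and MT-ND1, mitochondrially encoded subunits of complex I, gained 853 and 840 CPM with log2 fold changes of 0.30 and 0.31 (edgeR adjusted p = 0.00281 and 0.00287), and the share of counts from mitochondrial genes ran from 7.18% to 7.94% in dTAG-S0 and from 7.70% to 8.51% in dTAG-S30.

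The promoters of 4 genes are shown because they carry, between them, the short motifs that were most frequent among the strongly raised genes, together with a gene whose rise was smaller than in DMSO. Each window runs from 250 bases before to 50 bases after the transcription start of RefSeq (GRCh38.p14), all 4 on the plus strand. Capitals mark matches to a CArG box, to the CRE core (TGACGT, on either strand), to an AP-1 site or to a TATA box (TATAAA).
FOS: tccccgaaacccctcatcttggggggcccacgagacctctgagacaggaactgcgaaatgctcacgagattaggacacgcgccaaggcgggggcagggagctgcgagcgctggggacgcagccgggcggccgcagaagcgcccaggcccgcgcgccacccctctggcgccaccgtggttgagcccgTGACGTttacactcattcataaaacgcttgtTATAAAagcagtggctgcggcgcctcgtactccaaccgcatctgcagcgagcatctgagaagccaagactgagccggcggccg
NR4A3: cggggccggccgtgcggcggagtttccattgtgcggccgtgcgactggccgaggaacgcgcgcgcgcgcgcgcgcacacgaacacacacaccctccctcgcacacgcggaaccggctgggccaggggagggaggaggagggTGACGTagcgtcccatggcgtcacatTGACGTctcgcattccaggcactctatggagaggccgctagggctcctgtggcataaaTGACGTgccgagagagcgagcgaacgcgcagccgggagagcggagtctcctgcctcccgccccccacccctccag
EGR1: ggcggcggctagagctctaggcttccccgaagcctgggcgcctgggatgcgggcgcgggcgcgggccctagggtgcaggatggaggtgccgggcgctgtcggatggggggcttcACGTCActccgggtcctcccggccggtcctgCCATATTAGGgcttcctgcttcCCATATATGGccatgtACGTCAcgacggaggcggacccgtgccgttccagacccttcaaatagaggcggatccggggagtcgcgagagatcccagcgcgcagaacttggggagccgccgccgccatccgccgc
CXCL8: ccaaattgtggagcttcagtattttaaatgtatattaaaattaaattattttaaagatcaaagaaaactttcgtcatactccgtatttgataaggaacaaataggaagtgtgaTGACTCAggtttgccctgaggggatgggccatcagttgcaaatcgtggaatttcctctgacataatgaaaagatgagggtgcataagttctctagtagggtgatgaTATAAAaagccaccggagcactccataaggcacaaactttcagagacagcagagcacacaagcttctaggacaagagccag
The FOS window, chr14:75278578-75278877, has a CRE core beginning 64 bases before the start and a TATA box at 33. NR4A3, at chr9:99821635-99821934, has 3 CRE cores, at 109, 83 and 25 bases before the start, and no TATA box match. EGR1, an early growth response factor that rose 9.49-fold from 57.2, 54.3 and 60.7 CPM to 485, 566 and 598 CPM, has CArG boxes at 105 and 83 and CRE cores at 136 and 67 in chr5:138465229-138465528. CXCL8, a neutrophil chemokine, has an AP-1 site at 137 and a TATA box at 31 in chr4:73740319-73740618. A match is a description of these letters, and a motif further from the start than the window would not be seen.

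Over all genes, the share of promoters with each motif differed with the size of the response. These shares were read from hg38 at the start of each gene's GENCODE v44 canonical transcript, in windows of the same extent and on both strands, and 13061 of the 13093 genes tested (99.8%) had one. CArG boxes were found in 1.13% of all windows, in 0.953% of genes not called, in 2.11% of genes raised under 2-fold, 5.16% raised 2 to 4-fold, 12.8% raised 4 to 8-fold and 17.9% raised 8-fold or more. The 13 genes raised at least 4-fold with a CArG box were EGR1, EGR2, EGR3, SRF itself, DUSP5, the contractile genes ACTG2, MYL9 and LDB3, and GPR183, ASB2, ISG15, CAPN13 and GLIPR1. The CRE core occurred in 11.4% of all windows, 10.9% of genes not called, 22.3% of those raised under 2-fold, 26.5% at 2 to 4-fold, 38.3% at 4 to 8-fold and 35.9% at 8-fold or more. Its full palindrome, TGACGTCA, was in 3.32% of all windows and in 12 of the 86 genes raised at least 4-fold (14%), among them NR4A2, DUSP1, AREG and MAFF. TATAAA was in 5.52% of all windows and in 28.2% of genes raised 8-fold or more. ETS sites (CCGGAAGT) ran the opposite way, from 8.41% of all windows to 1 of the 86 (1.16%), and AP-1 sites (TGACTCA or TGAGTCA) were in 2.73% of all windows and 8.14% of the 86. The EGR site, GCGTGGGCG, was in 1.38% of all windows and 1.16% of the 86. Among genes lowered by at least 1.5-fold the CRE core was in 4.66% of windows. No test was made of these shares, which rest on 39 genes in the most strongly raised class.

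Raised genes were also short. Median length was 12.7 kb for genes raised 8-fold or more, 17 kb at 4 to 8-fold, 19.8 kb at 2 to 4-fold and 32.6 kb under 2-fold, against 35.4 kb over all genes tested. Of genes under 5 kb 4.61% were raised at least 2-fold, and of genes over 200 kb 0.847%. Calls of lower expression followed another course, with 3.67% of genes under 5 kb, 20.4% of those from 20 to 50 kb, 20.9% from 50 to 100 kb and 9.60% over 200 kb. Lengths are those of the annotated gene, which can exceed the transcript in use, as for EGR2, whose RefSeq start lies well inside its annotated span of 107905 bases. Genes raised 8-fold or more had a median of 2.48 CPM in dTAG-S0, against 36.1 CPM over all genes, and reached a median of 54.9 CPM. The class was chosen by its ratio to dTAG-S0, so a low start is partly built in. Some of its genes, such as ASTL, also entered the test only through the serum libraries.

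**Figure D3:**
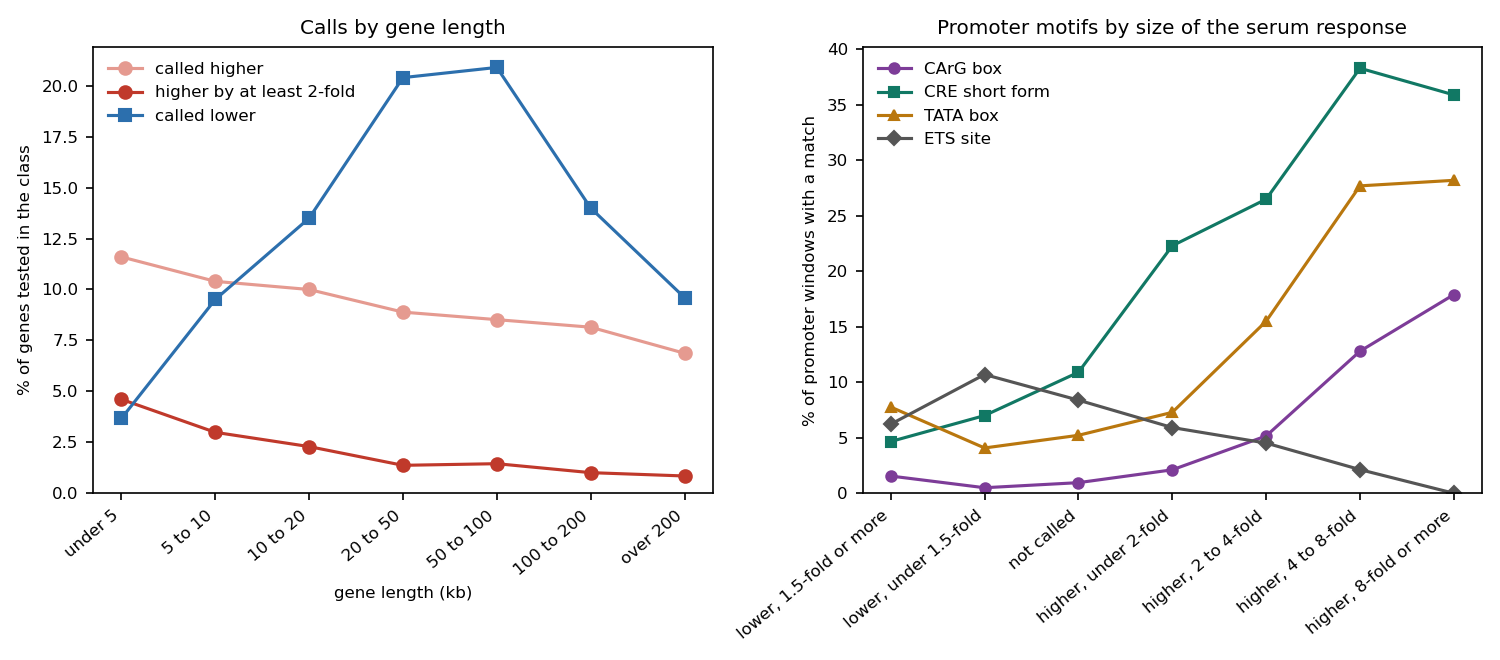
Left, the percentage of the genes tested in each class of gene length (kb) that were called higher, raised at least 2-fold or called lower with serum in dTAG-treated cells. Right, the percentage of promoter windows with a match to 4 motifs for genes grouped by the size and direction of their response. The share raised at least 2-fold falls from 4.61% to 0.847% with length, and CArG box and TATA box matches are most frequent and ETS sites least frequent among genes raised 8-fold or more, while the CRE core is at 38.3% at 4 to 8-fold and 35.9% at 8-fold or more.

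Transcription factor genes rose in several of the lists examined. By comparison, 9.09% of all genes tested were called higher and 15.4% lower, a background for the counts of every list below. Of 12 AP-1 and related bZIP genes tested, 10 rose and none fell (median log2 fold change 2.63, against -0.06 over all genes). JUN, the partner of FOS, went from 15.4, 14.9 and 17.1 CPM to 150, 151 and 177 CPM, and JUNB (2.60), FOSL1 (2.76), FOSL2 (2.54) the small MAF protein MAFF (2.65) and JUND (0.82) also rose. MAFG (0.23) and BATF3 (-0.26) were not called. Of 9 EGR, NR4A and NAB genes 8 rose (median 4.45). NAB2, a co-repressor that binds EGR proteins, rose by 0.43, while its relative NAB1 went from 66, 71 and 68 CPM to 63.3, 60.7 and 55.3 CPM (log2 -0.20, edgeR adjusted p = 0.032), a fall that was not called with TMM, DESeq2 or spike-in sizes, nor without dTAG-S0 replicate 2 or 3 or dTAG-S30 replicate 2 or 3. Of 11 KLF factors 9 rose and none fell (median 0.59), led by KLF2 (2.09), KLF6 (2.03), KLF4 (1.76) and KLF5 (1.32). KLF6 went from 68.9, 65.4 and 72.9 CPM to 271, 284 and 293 CPM.

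Other early regulators rose widely but less steeply. All but IER5 (0.20, not called) of 14 IER, BTG and similar genes rose (median 1.39), among them CSRNP1 (3.73), a nuclear protein induced by serum and by axin, ARC (3.15), known from synaptic plasticity, the anti-proliferative co-factor BTG2 (2.66) and IER2 (2.57). Of 19 further transcription factors 16 rose and none fell (median 0.95). SNAI2, a repressor of epithelial genes, had no count in any dTAG-S0 library and 1.57, 0.894 and 1.04 CPM with serum, at least 8.86-fold higher against 3 counts per library. BHLHE40, a clock-related repressor, rose by 2.60 and HES4, a Notch pathway repressor, by 1.35. SRF went from 34.3, 32.7 and 35.9 CPM to 204, 185 and 206 CPM (5.78-fold). Of 14 serum-inducible kinases 9 rose, led by the salt-inducible kinase SIK1 (3.55), the NF-kappaB and MAP kinase activators MAP3K14 (1.75) and MAP3K8 (1.57), and the polo-like kinase PLK2 (1.47). The PIM kinases PIM1 (0.09) and PIM2 (0.03) were not called, whereas PIM3 rose by 0.51.

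**Figure D4:**
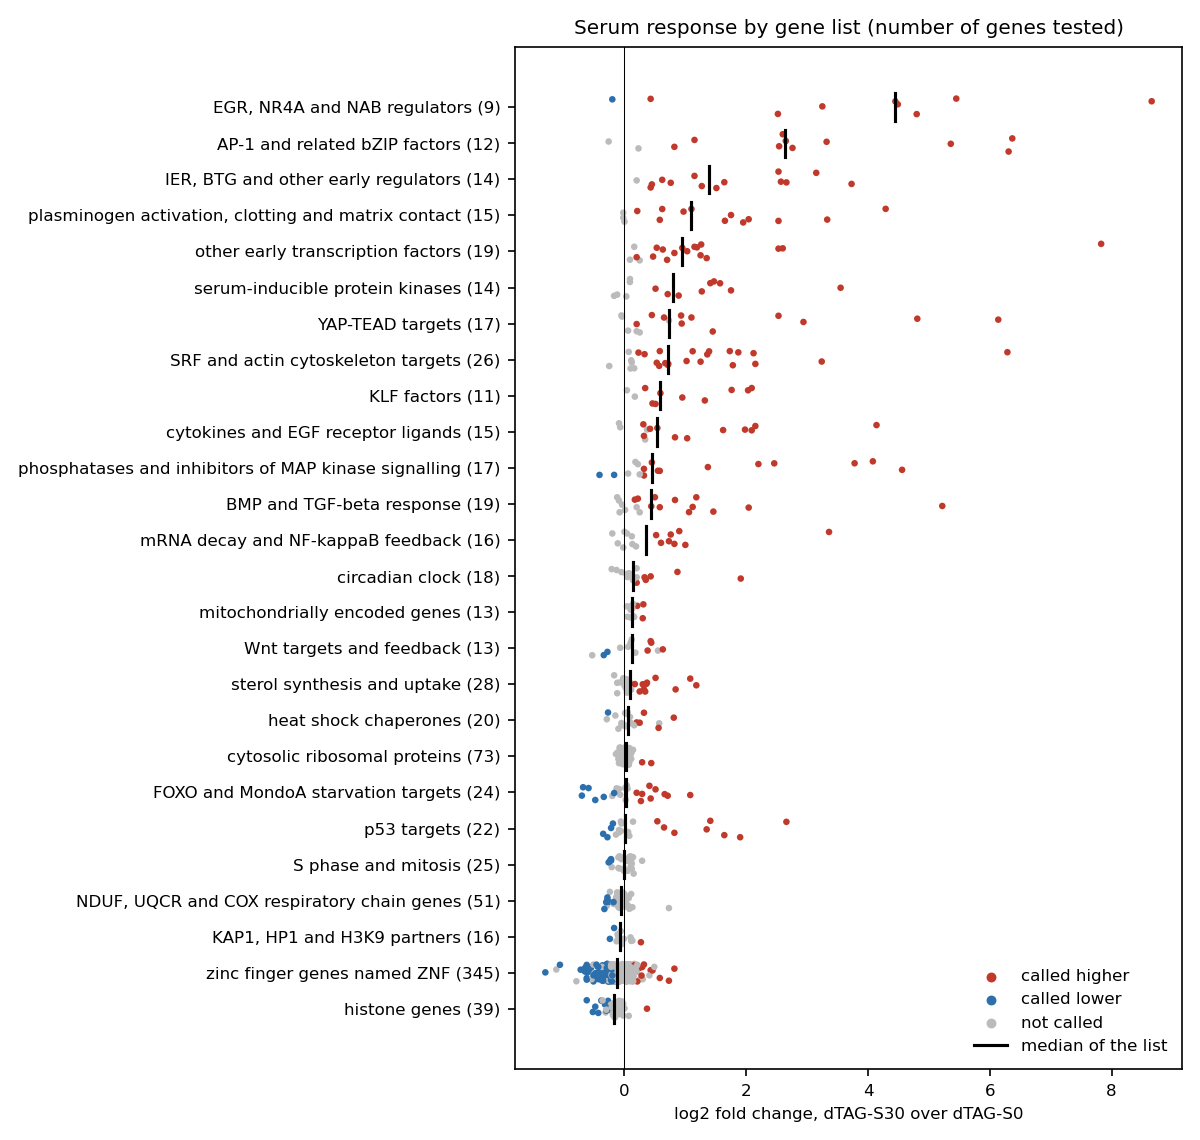
Log2 fold change with serum in dTAG-treated cells for each gene tested in 26 lists, ordered by list median (black bar), with genes called higher in red, called lower in blue and not called in grey. The EGR, NR4A and NAB list (median 4.45) and the AP-1 list (2.63) lie highest, and the zinc finger and histone lists hold most of the blue points.

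Genes that restrain signalling rose alongside those that carry it. Among 17 phosphatases and inhibitors of MAP kinase signalling 11 rose (64.7%, against 9.09% of all genes) and 2 fell (11.8%, under the 15.4% of all genes), with a median of 0.45. DUSP1, a nuclear phosphatase of p38, JNK and ERK, went from 9.03, 8.4 and 8.91 CPM to 145, 145 and 159 CPM (log2 4.08), and DUSP8 rose by 2.46 and DUSP4 by 2.20. The cytoplasmic ERK phosphatase DUSP6, already at 421, 414 and 428 CPM without serum, rose to 515, 557 and 516 CPM (log2 0.32). The Sprouty genes SPRY2 (0.58), SPRY4 (0.55) and SPRY1 (0.45) rose by similar amounts, and the related SPRED1 (-0.17) and SPRED3 (-0.41) were the 2 that fell, neither of which was called with TMM, DESeq2 or spike-in sizes, nor without 1 of DMSO-S0 replicate 3, dTAG-S30 replicate 1 or dTAG-S30 replicate 2. Of 16 genes of mRNA decay and NF-kappaB feedback 8 rose (50%, against 9.09% of all genes). ZFP36, which promotes the decay of AU-rich mRNAs, went from 12.3, 13.5 and 12.7 CPM to 123, 131 and 137 CPM, and the RNase ZC3H12A (1.0), the NF-kappaB subunit RELB (0.90) and ZFP36L2 (0.82) rose less. NFKBIA, the inhibitor of NF-kappaB that is among its own targets, was not called (0.04).

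Genes for secreted factors and for the actin cytoskeleton rose as well. Of 15 cytokines and EGF receptor ligands 11 rose and none fell (median 0.54). EDN1, the vasoactive peptide endothelin, went from 1.08, 0.39 and 0.708 CPM to 12.1, 11.9 and 13.2 CPM (log2 4.14), and AREG (2.15) and the chemokines CXCL2 (2.09) and CXCL8 (1.98) followed. Of 26 SRF and actin cytoskeleton genes 20 rose and none fell (median 0.72). ACTG2, enteric smooth muscle actin, had at most 1 count in each dTAG-S0 library and 1.71, 1.21 and 1.63 CPM with serum (at least 11.5-fold higher against 3 counts per library), TUFT1 rose by 3.24, FILIP1L (which overlaps CMSS1 on the other strand) by 2.15 from at most 5 counts a library and the myosin light chain MYL9 by 2.12. The broadly expressed actins ACTB (0.57) and ACTG1 (0.58) rose far less, and ACTA2 (-0.25) was not called. The CCN genes headed the 17 YAP-TEAD targets, of which 11 rose, with the kinase NUAK2 (2.94) and the stress sensor GADD45B (2.53) next.

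Matrix, clotting and TGF-beta genes moved in the same direction. Of 15 genes of plasminogen activation, clotting and matrix contact 12 rose (median 1.10), and none fell. THBS1, the matricellular protein thrombospondin 1, went from 37.1, 29.4 and 38 CPM to 721, 638 and 700 CPM (log2 4.29, SE 0.0925, edgeR adjusted p = 3.47e-23). Its gene overlaps FSIP1 on the other strand. PTGS2, the inducible cyclo-oxygenase, rose by 3.33 and the prostaglandin receptor PTGER4 by 2.53. Of 19 BMP and TGF-beta response genes 12 rose (median 0.44). TGFBI, a secreted matrix protein, had 0.047, 0.173 and 0.333 CPM without serum and 8.66, 5.28 and 8.16 CPM with it, PMEPA1, a feedback inhibitor, rose by 1.46, and ID2, a dominant negative bHLH protein, by 1.18. COL1A1, a collagen listed as a fibroblast marker, went from 11.8, 12.9 and 14.5 CPM to 78, 65.6 and 76.1 CPM (log2 2.47), while the other fibroblast markers COL1A2, COL3A1, DCN and PDGFRB stayed below 1 CPM in all 6 libraries. The summed level of the 4 tested markers of other cell types was 18.3 to 20.3 CPM in dTAG-S0 and 71.6 to 83.8 CPM in dTAG-S30, of which COL1A1 was the part that was called.

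Programmes that respond to feeding over longer times were mixed at 30 min. Over all genes tested 9.09% were called higher and 15.4% lower. Of 24 targets of the starvation factors FOXO and MondoA 9 rose (37.5%) and 6 fell (25%), with a median of 0.02. The repressor BCL6 (1.08) and YPEL5 (0.71) rose, and YPEL2 (-0.70) and the arrestin-domain gene ARRDC4 (-0.68) fell, with 6.82, 6.88 and 7.45 CPM of ARRDC4 without serum and 4.09, 4.56 and 4.26 CPM with it. Of 28 sterol synthesis and uptake genes 11 rose (39.3%) and none fell. INSIG1, which holds SREBP in the endoplasmic reticulum, went from 200, 187 and 194 CPM to 467, 442 and 413 CPM (log2 1.18), and the isomerase IDI1 rose by 0.51. In contrast FDFT1 (-0.12) and FDPS (0.00), enzymes of the same pathway, were not called. Of 18 clock genes 6 rose (33.3%), led by PER1 (1.91), NFIL3 (0.87), CRY2 (0.43) and PER2 (0.35). Of 22 p53 targets 8 rose (36.4%) and 4 fell (18.2%, near the 15.4% of all genes), with a median of 0.01. No fall was called with spike-in sizes, and 1 was called without dTAG-S0 replicate 3 or dTAG-S30 replicate 3. The risen ones included BTG2, the cytokine GDF15 (1.90), the damage sensor GADD45A (1.64) and PLK3 (1.41), whereas the classical target MDM2 (0.08) was not called. Of 20 heat shock genes 5 rose (25%) and 1 fell (5%). The small chaperones HSPB8 (0.81) and HSPB1 (0.56), the factor HSF1 (0.32), DNAJB1 (0.25) and HSPA5 (0.20) were higher. HSF2 (-0.27) was lower, but was not called with spike-in sizes, without dTAG-S0 replicate 2 (edgeR adjusted p = 0.0654) or without dTAG-S30 replicate 3 (0.0751). Of 13 Wnt targets and feedback genes 4 rose, namely MYC (0.63), BAMBI (0.44), the secreted inhibitor DKK1 (0.43) and NKD2 (0.38), and 2 fell, RNF43 (-0.34) and AXIN2 (-0.28), which is 15.4% and equal to the share over all genes. NKD2 lost its call without dTAG-S0 replicate 2 or dTAG-S30 replicate 3. Among 6 intestinal epithelial markers tested KRT19 (0.34), CDH1 (0.31), KRT18 (0.30) and KRT8 (0.29) rose.

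Most cell cycle, chromatin and housekeeping genes were not called, and the number of calls depended on the scaling. Among 25 S phase and mitosis genes none was called higher and 4 lower (16%, near the 15.4% of all genes), with BUB1 at -0.26, CCNA2 at -0.23, AURKA at -0.22 and TOP2A at -0.22. Spike-in sizes left 1 of the 4, and AURKA and TOP2A were also not called with TMM, DESeq2 or without dTAG-S0 replicate 1, dTAG-S0 replicate 3 or dTAG-S30 replicate 3, nor AURKA without DMSO-S0 replicate 3, DMSO-S30 replicate 1 or dTAG-S30 replicate 1. With TMM scaling the same list gave 5 higher and 2 lower, its median moving from -0.01 to 0.06, and without dTAG-S30 replicate 3 it gave 2 lower. Of 39 histone genes 10 fell (25.6%, against 15.4% of all genes) and 1 rose (2.56%, against 9.09%), with a median of -0.18. With TMM 8 fell and 1 rose, and with spike-in sizes 5 fell and 1 rose. H2BC11, a clustered H2B gene, went from 108, 106 and 114 CPM to 74.7, 74.7 and 80.2 CPM, and H2BC6 (-0.62), H4C12 (-0.48) and H3C12 (-0.43) were the other large falls, H4C12 not called without dTAG-S30 replicate 1. Of 345 genes named ZNF, most of them zinc finger proteins of the kind whose KRAB members recruit KAP1, 91 fell (26.4%, against 15.4% of all genes) and 11 rose (3.19%, under the 9.09% of all genes), with a median of -0.13. With TMM 58 fell and 21 rose, with spike-in sizes 32 and 7, and without dTAG-S30 replicate 3 58 and 8. Lower calls over all 13093 genes also became fewer, from 2013 to 1112, 617 and 1200 in these 3 settings. The ZNF and histone medians were -0.07 and -0.11 with TMM, against 0 over all genes. With spike-in sizes they were -0.09 and -0.14, against -0.02. ZNF217, an oncogenic repressor, rose from 90, 87.3 and 95 CPM to 143, 150 and 159 CPM and ZNF487 by 0.82, while ZNF343 (-1.30) and ZNF705A (-1.06) fell from under 2 CPM, and leaving out dTAG-S30 replicate 1 or 3 ended the call of ZNF343 (edgeR adjusted p = 0.0578 and 0.0729). Both of the last 2 genes overlap another gene model on their own strand. In the list of KAP1, HP1 and H3K9 methylation partners TRIM28 rose and the HUSH subunits TASOR (-0.24) and PPHLN1 (-0.17) fell, with 13 of 16 not called. The shares called lower (12.5%) and higher (6.25%) were under those of all genes (15.4% and 9.09%). Neither fall was called with spike-in sizes, and PPHLN1 was also not called with TMM, DESeq2 or without DMSO-S30 replicate 1, dTAG-S0 replicate 2, dTAG-S30 replicate 2 or dTAG-S30 replicate 3. Of 73 ribosomal protein genes 2 rose (2.74%, under the 9.09% of all genes) and none fell. The risen ones were RPL21 (0.44) and RPL41 (0.29), the latter not called without dTAG-S30 replicate 1. Among 51 nuclear respiratory chain genes 7 fell (13.7%, under the 15.4% of all genes) and none rose, and with TMM 3 fell and 2 rose, the median moving from -0.06 to 0.02. Without dTAG-S30 replicate 1, 4 fell. NDUFV2 (-0.28) kept its call in every setting, while NDUFA12 (-0.33) lost it with spike-in sizes or without dTAG-S0 replicate 2, NDUFA8 (-0.28) without dTAG-S30 replicate 1, and NDUFC1 (-0.30) in 8 settings, TMM and DESeq2 among them.

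The falls of at least 2-fold were few and small in reads, since 50 of the 56 had a mean of under 100 counts against 59 of the 241 rises. ANKUB1, an ankyrin repeat gene of little known function, had 7.57, 7.23 and 6.2 CPM without serum and 2.51, 2.46 and 1.81 CPM with it (log2 -1.60, SE 0.175, edgeR adjusted p = 6.91e-08). Its long gene model (chr3:149761100-149968385) overlaps PFN2 and RNF13. Several other large falls lay within or across other genes as well, ENSG00000258465 (-1.26) over DCAF8 and PEX19, THAP2 (-1.16) across ZFC3H1, the readthrough RPS10-NUDT3 (-1.0) over both its parents, and ENSG00000285329 (-0.98) over NAA60 and ZNF174, so which transcript fell cannot be told from these counts. Of the 10 falls named for their size among genes with at least 100 counts, those with no overlapping protein-coding gene were THBS4, another thrombospondin (-1.08), GVQW3 (-1.06), the replication-independent histone gene H3-3A (-1.0), the splicing-associated RP9 (-0.96) and TTC32 (-0.92), the last 2 short of 2-fold. Overlaps with other kinds of gene were not looked for. H3-3A went from 17.2, 18 and 17.9 CPM to 8.84, 8.14 and 9.7 CPM, without overlap of the groups, which the choice of these genes required. How reads that map to more than 1 place were counted is not known, for this gene as for the others. By CPM lost, the order was IMMP2L (fell by 113 CPM), LRP1B, LUC7L3, WDR74 and TNPO1, with log2 fold changes between -0.38 and -0.27. LRRN3 overlaps IMMP2L on the other strand, and TEX54 overlaps WDR74 on the same strand. IMMP2L and LRP1B span 899467 and 1900279 bases, and their dTAG-S30 replicate 1 (523 and 487 CPM) lay within the dTAG-S0 range. Both lost their call without dTAG-S0 replicate 2, dTAG-S30 replicate 2, dTAG-S30 replicate 3 or DMSO-S0 replicate 3, and LRP1B also without DMSO-S30 replicate 1 or 3. They lost it too with TMM, DESeq2 and spike-in sizes, as did WDR74, which was also not called with 2 ERCC factors or without any 1 of 7 libraries (all dTAG libraries but dTAG-S0 replicate 1, and DMSO-S0 replicates 1 and 3), and LUC7L3 lost its call with spike-in sizes. TNPO1, a nuclear import receptor, fell from 306, 317 and 304 CPM to 240, 245 and 224 CPM under all settings tried (edgeR adjusted p = 1.76e-05).

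Set beside the same stimulus in DMSO, fitted from the other 6 libraries in the same model, most large rises were called in both. Of the 241 genes raised at least 2-fold, 231 (95.9%) were also called higher in DMSO, where 9.18% of all genes were, and 221 also passed 2-fold. Of the 56 genes lowered at least 2-fold, 29 (51.8%) were called lower in DMSO, against 17.1% of all genes. The serum effect itself was called different between the treatments for 5 genes (0.0382%), and 414 had an unadjusted p under 0.05 in edgeR. All 5 differences were negative, that is, the log2 change was lower with dTAG, and 4 of the 5 were among the 241 raised genes. The difference was also negative for every one of the largest rises named above among genes with at least 100 counts on average. These log2 differences ran from -0.03 (SE 0.3) for CCN2 to -0.82 (SE 0.167, edgeR adjusted p = 0.0721) for EGR3. Of these genes only ATF3 (-0.7) was called different. Whether the large rises as a set were smaller with dTAG was not tested. For CXCL8 the log2 rise was 1.98 with dTAG and 3.74 with DMSO (difference -1.76, SE 0.174, edgeR adjusted p = 2.62e-06). Its levels with serum overlapped between treatments, at 32, 36.7 and 39.5 CPM with dTAG and 37, 34.7 and 35 CPM with DMSO, whereas without serum they were 7.19, 9.7 and 9.41 CPM and 3.39, 2.8 and 2.31 CPM and did not overlap. INSIG1 likewise started higher with dTAG (200, 187 and 194 CPM against 120, 111 and 110 CPM) and ended higher (467, 442 and 413 CPM against 390, 391 and 411 CPM). JUN started at 15.4, 14.9 and 17.1 CPM against 9.7, 9.95 and 9.86 CPM, and 1 of its dTAG-S30 libraries (177 CPM) reached into the DMSO-S30 range of 173 to 200 CPM. ATF3 also started higher with dTAG (18.1 to 20.3 CPM against 14.4 to 16.4 CPM) and was lower at 30 min (727 to 843 CPM against 991 to 1110 CPM), with no overlap at either time. ATG12, an autophagy conjugation protein whose gene overlaps AP3S1 on the other strand, rose with DMSO (log2 0.41) and was not called with dTAG (-0.14).

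**Figure D5:**
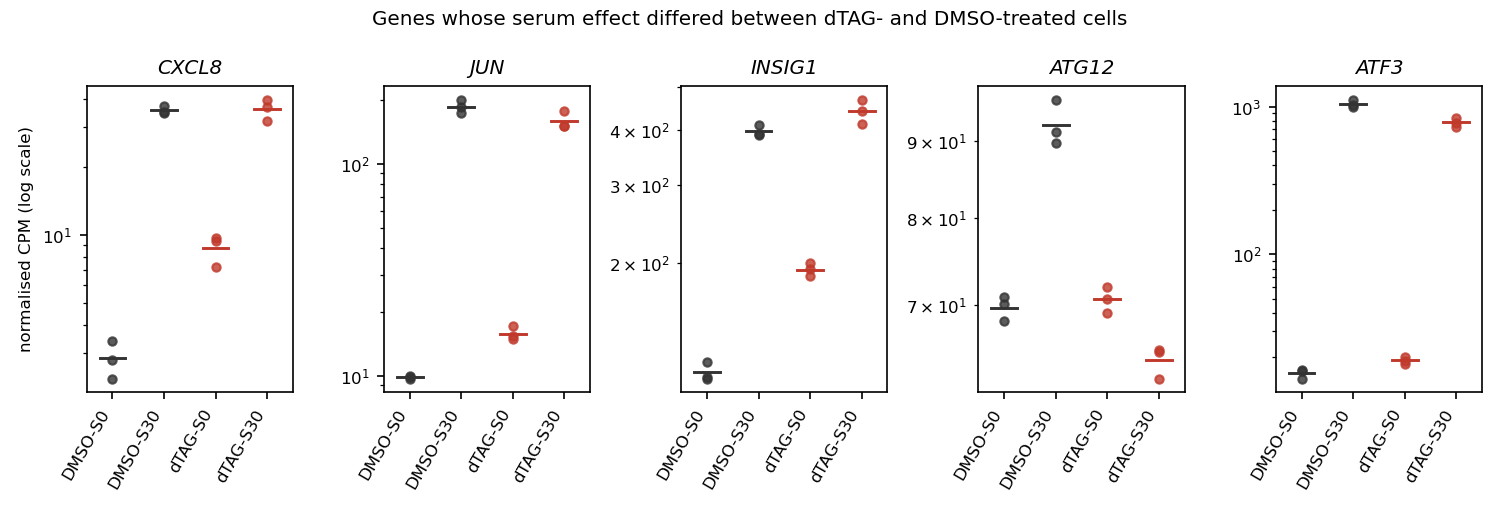
Normalized CPM (log scale, a scale of its own for each gene) in the 3 libraries of each of the 4 groups for the 5 genes whose serum effect was called different between dTAG (red) and DMSO (grey), with a bar at each group mean. For CXCL8, JUN, INSIG1 and ATF3 the dTAG-S0 libraries lie above the DMSO-S0 libraries, for ATF3 the dTAG-S30 libraries also lie below the DMSO-S30 libraries, and ATG12 is higher with serum in DMSO alone.

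A rise called with dTAG and not with DMSO was seen for 10 of the 241 genes, and for none of them was the difference itself called. The 5 largest were PHYHIP (log2 1.72 with dTAG, 0.86 with DMSO), a protein that binds phytanoyl-CoA hydroxylase, the mitochondrial malic enzyme ME3 (1.57 and 0.58), the ciliary protein SPAG6 (1.49 and 0.34), MAGIX (1.39 and 0.22) and the cobalamin carrier TCN1 (1.38 and 0.87). All 5 had under 2 CPM in every library. ME3 lost its call without DMSO-S0 replicate 1, DMSO-S30 replicate 1, dTAG-S0 replicate 1, dTAG-S30 replicate 1 or dTAG-S30 replicate 3 (edgeR adjusted p from 0.0529 to 0.155). It also lost it with 2 ERCC factors (0.0623) and in a fit of the 6 dTAG libraries alone (0.059). TCN1 lost its call without dTAG-S0 replicate 2 (0.0709), without dTAG-S30 replicate 3 (0.0515) or without a filter on low counts (0.0711). A few of the raised genes owe their place to the serum libraries, since 16 of the genes tested reached 10 counts in the 6 serum libraries and in no other. Of those, 15 were called higher by at least 2-fold, among them ASTL, SNAI2, ACTG2, FILIP1L and TGFBI named above. Near the limit of testing, the 84 genes with 10 counts in exactly 6 libraries had a median of 9.88 counts and the 83 left out with exactly 5 had 9. Another 8 genes left out had at least 10 counts in all 3 dTAG-S30 libraries and in none of dTAG-S0, among them SPINK4, a goblet cell peptide, with 0, 0 and 0 counts without serum and 10, 18 and 14 with it.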

How the data were processed

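RNA-Seq was done on ribosome-depleted RNA with ERCC spike-ins. Per the labels and the study's methods, the authors trimmed reads (Trim Galore 0.6.4), mapped them to hg38 and counted them over whole protein-coding genes with featureCounts (Subread 1.6.3). The deposited values are raw counts for 19901 genes and 92 ERCC transcripts. Strand handling and the treatment of reads that map to more than 1 place are not given in the sources used here. No per-sample column was left unused.

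Genes reaching 10 counts in 6 or more of the 12 libraries were tested (13093, with 6808 left out). The same filter kept 69 ERCC transcripts, which were not themselves tested. Counts were scaled by upper quartile, 1 factor of unwanted variation was taken from the ERCC transcripts (RUVg algorithm), and all 4 groups were fitted in edgeR 4.0.16 (R 4.3.3) with the two-sided quasi-likelihood F-test and Benjamini-Hochberg adjustment over all genes tested. The contrasts were serum in dTAG, serum in DMSO and their difference. The procedure was tested on simulated data. CPM are relative to the scaled library size. Starts in the table count from 0 and are given from 1. Overlaps are with protein-coding genes of GENCODE v44, not known to be the authors' annotation (34.1% of genes have the same start and end there). They are not mentioned for every gene named, and PER1, PTGER4, HSF1, PLK3, BCL6 and CCNA2 have them too. Promoter windows for shares came from hg38 at GENCODE v44 starts, not from the RefSeq table used for the printed sequences, which held too few of the tested genes.

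The genes named were TRIM28, the 12 largest rises and 10 largest falls without overlap of libraries and with a mean of at least 100 counts, the 5 largest gains and losses in CPM, up to 4 called genes per list (some members are not reported here), genes called in the interaction test, and the 5 largest rises called in dTAG alone. EGR1, NAB1, NAB2, SPRED1, SPRED3, genes named for a promoter match, uncalled list members and others beyond the 4 of a list were added after their values were seen. Members and lists were chosen with earlier results of these data known. Replicate numbers were not treated as pairs in the main fit. The study calls its replicates biological without saying that they were separate cultures, so p-values measure the spread between these samples, part of which may be technical.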

Additional observations from a re-analysis of the deposited data

Results flagged for a closer look

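The serum effect was called different between dTAG- and DMSO-treated cells by the interaction test for 5 genes, which is what set them apart. The log2 differences (dTAG minus DMSO) were -1.76 for CXCL8, -0.94 for JUN, -0.62 for INSIG1, -0.54 for ATG12 and -0.70 for ATF3. In each of the 3 dTAG libraries without serum CXCL8, JUN, INSIG1 and ATF3 lay above all 3 DMSO libraries without serum. CXCL8, JUN and INSIG1 kept their call under all 21 alternatives, with adjusted p up to 0.00114, 0.0187 and 0.026. ATG12 ranged from 2.57e-08 to 0.124 and lost its call with library sizes from the spike-ins. ATF3 ranged from 2.09e-08 to 0.0727 and lost its call with the same library sizes (0.0522), without DMSO-S0 replicate 2 (0.0727) and without dTAG-S0 replicate 3 (0.0654).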

How the results depend on the processing

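The 241 rises of at least 2-fold numbered between 233 and 295 under every alternative run except a filter of 10 counts in all 12 libraries, which removes weakly expressed genes and left 205. The small falls were the part that moved. Genes called lower numbered 1112 with TMM, 1159 with DESeq2 (36 of them at least 2-fold) and 617 with library sizes from the spike-ins, where 1646 genes were called in all. Lower calls were more numerous in other settings, such as the likelihood ratio test (2262) and 2 ERCC factors (2317). They numbered 2614 with 10 counts required in all 12 libraries and 2869, of 4512 calls, with the 6 dTAG libraries alone. Leaving out 1 library at a time gave 2137 to 3974 calls, 937 to 1429 higher and 1200 to 2545 lower, the fewest without dTAG-S30 replicate 3, and 233 to 258 higher and 39 to 59 lower by at least 2-fold. The interaction test called 3 genes with spike-in sizes, 7 with the replicate number as a block, 8 with 10 counts required in all libraries, 9 with 2 ERCC factors, 10 with the likelihood ratio test, 22 with DESeq2, 29 without a filter, and 4 to 8 when 1 library was left out (8 without dTAG-S30 replicate 1). The ERCC ratio ran from 0.925 to 0.980.

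Deviations of same-numbered samples were at most weakly correlated (-0.074, -0.125 and 0.0986 in dTAG, and 0.0637, 0.0506 and 0.0586 in DMSO). In dTAG, dTAG-S30 replicate 1 correlated best with dTAG-S0 replicate 2. The replicate block gave 3279 calls, 1210 higher and 2069 lower, and changed no call of a named gene. Depth limits what can be said of genes near 10 counts, and with 3 libraries a group no single value can reach an exact p below 0.1.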
